A study of Mus musculus with 9 samples.

Results

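The inhibitory coreceptors of the B cell receptor were followed as 10 genes of the 55536 in the deposited count table, chosen by gene name. They are 8 receptor or receptor-like genes (Cd22, Cd72, Fcgr2b, Siglecg, Pirb, Fcrl1, Fcrl5 and Fcrla) and 2 genes for phosphatases that such receptors recruit (Ptpn6 and Inpp5d). All 10 passed the filter on low counts and were among the 12849 genes tested. The libraries came from mouse spleen B cells labelled pre-GC, before the germinal centre, where activated B cells proliferate and refine their antibodies. WT had 4 libraries. The other genotype, p52Ki, had 5 libraries with titles reading p52ki/ki, that is, homozygous for a knock-in of p52, the NF-kB subunit made from Nfkb2. The strain, age and sex of the mice, any immunisation, the sort and the design of the knock-in were not stated in the labels. Nothing in the labels states that the libraries of a genotype are from separate mice, so p-values measure sample-to-sample spread only, and that spread may be technical.

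When antigen binds the B cell receptor, the kinase Lyn phosphorylates not only the activating chains CD79A and CD79B but also tyrosines in the tails of inhibitory coreceptors. The short stretch around each such tyrosine is called an immunoreceptor tyrosine-based inhibitory motif. Once phosphorylated it holds SHP-1, the tyrosine phosphatase encoded by Ptpn6, or SHIP-1, the inositol lipid phosphatase encoded by Inpp5d, which damp calcium flux and lipid signalling. CD22 and SIGLEC-G bind sialic acids on the cell's own surface and on neighbours, CD72 binds the semaphorin CD100, FCGR2B binds the Fc part of IgG in immune complexes, and PIR-B binds MHC class I.

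The motif was located in the coding sequences of GENCODE M21 (build GRCm38), where a script read each frame and looked for a stretch of 6 codons. The first codon had to be isoleucine, leucine, valine or serine, the third tyrosine, and the last leucine, valine or isoleucine. Of 21549 coding sequences, 48.9% held such a stretch somewhere, so a match is a description and not a site. On the tail side of the most hydrophobic 19-codon window, Cd22 had 4 matches, Siglecg 3, Pirb 3, Cd72 2, Fcgr2b 1, Fcrl5 1 and Fcrl1 0. Cd72 carries its tail at the start of the protein and the others at the end. Fcrla encodes a protein that stays inside the cell, and no tail was assigned to it. The stretches of the genes that rose (Cd72, Siglecg and Fcrl5) and of Cd22 and Fcgr2b, which did not pass the test, are given below with the tyrosine codon in capitals. Each lies within an annotated coding exon.
Cd72, tyrosine codon 7, chr4:43454498-43454515 (minus strand): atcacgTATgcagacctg
Cd72, tyrosine codon 39, chr4:43454306-43454323 (minus strand): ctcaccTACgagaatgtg
Siglecg, tyrosine codon 590, chr7:43412688-43412705 (plus strand): ctggacTACatcaatgtg
Siglecg, tyrosine codon 659, chr7:43417979-43417996 (plus strand): ctccacTATgctgctctc
Siglecg, tyrosine codon 682, chr7:43418048-43418065 (plus strand): tctgatTACacagaggtc
Cd22, tyrosine codon 783, chr7:30867494-30867511 (minus strand): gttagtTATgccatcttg
Cd22, tyrosine codon 817, chr7:30867033-30867050 (minus strand): gtcactTACtcggtgata
Cd22, tyrosine codon 843, chr7:30866600-30866617 (minus strand): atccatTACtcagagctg
Cd22, tyrosine codon 863, chr7:30866540-30866557 (minus strand): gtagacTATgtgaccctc
Fcrl5, tyrosine codon 566, chr3:87457384-87457401 (plus strand): gtgattTACacagaagta
Fcgr2b, tyrosine codon 319, chr1:170961071-170961088 (minus strand): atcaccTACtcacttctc

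Members of the set changed unequally between the genotypes. Siglecg, Cd72 and Fcrl5 rose in p52Ki and none of the 10 fell, by edgeR's quasi-likelihood test with adjustment over all 12849 genes. The background was 4.49% of genes called higher, 4.04% called lower and 8.53% called in all. At an unadjusted edgeR p under 0.05, 6 members were higher and 0 lower, beside 10.8% and 10.6% of all genes tested. The median log2 fold change of the 10 was 0.34, beside 0.03 over all genes tested, and 8 of the 10 had positive values. The 10 were chosen with earlier results of these data known. Their values beside those of all genes are therefore a description and not a test of the set. Neither Cd22, the other sialic acid receptor, nor the phosphatase genes Ptpn6 and Inpp5d passed.

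**Figure D1:**
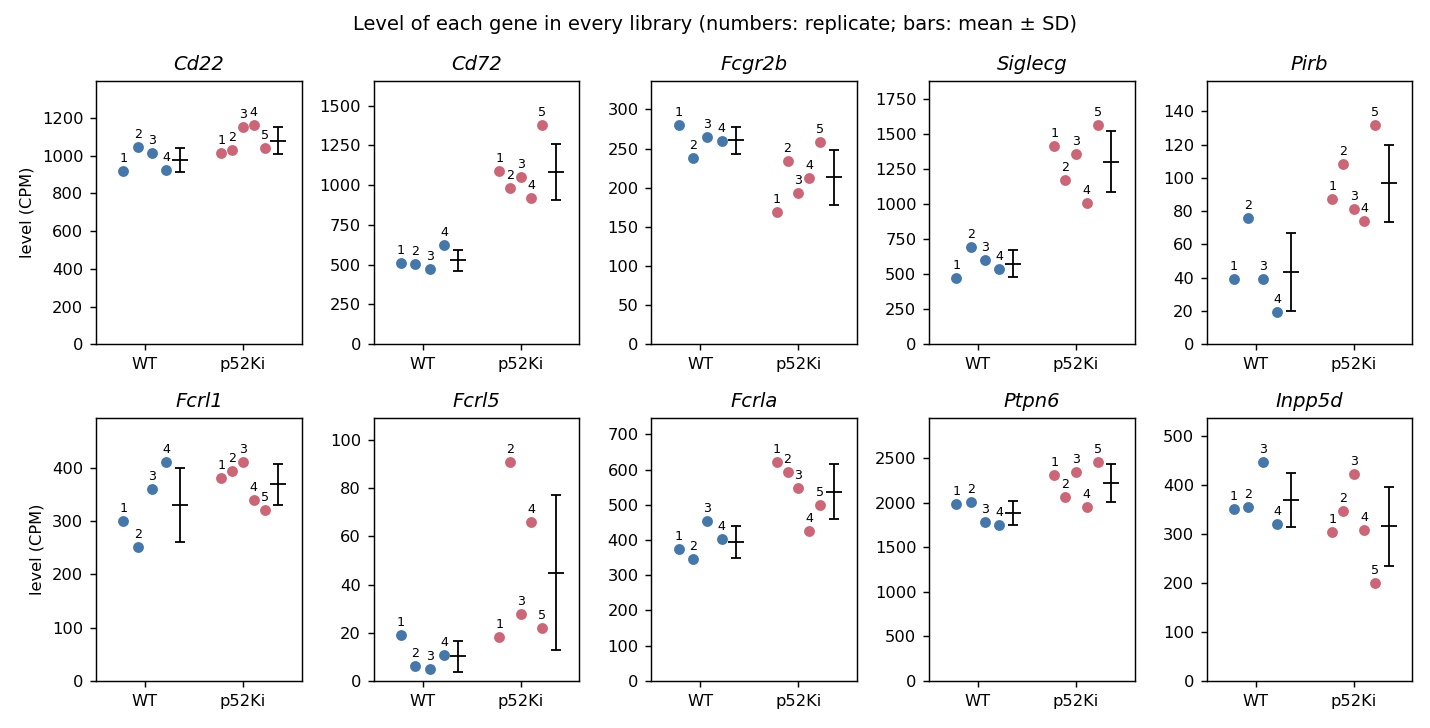
Level of each gene, in CPM (counts scaled to a common library total) on a linear axis from 0, in the 4 WT libraries (blue) and the 5 p52Ki libraries (red), with replicate numbers and mean ± SD bars. For Cd72 and Siglecg every p52Ki point lies above every WT point, whereas the other 8 genes overlap.

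Siglecg encodes a sialic acid receptor that restrains calcium signalling, above all in B-1 cells (ENSMUSG00000030468, chromosome 7, 43408204 to 43418358, plus strand, GRCm38). Its level, in CPM on scaled library sizes, was 471, 693, 598 and 537 in the WT libraries, by replicate number, and 1411, 1170, 1355, 1005 and 1564 in the p52Ki libraries. The lowest p52Ki library stood above the highest WT library. The means were 575 ± 94.6 CPM for WT and 1301 ± 217 CPM for p52Ki (SD, n = 4 and 5). The log2 fold change was 1.18 ± 0.16 (SE) with an edgeR adjusted p of 0.00249. Cd72 encodes a C-type lectin-like coreceptor whose tail recruits SHP-1 (ENSMUSG00000028459, chromosome 4, 43446462 to 43454628, minus strand). It stood at 512, 504, 471 and 623 CPM in WT and at 1089, 983, 1050, 918 and 1379 CPM in p52Ki, again without overlap. Its log2 fold change was 1.04 ± 0.14 (edgeR adjusted p = 0.00263), a fold of 2.06. Of the 10 members, these 2 lay wholly above WT in p52Ki and 0 wholly below, beside 7.3% and 6.53% of all genes tested (13.8% in either direction). Both genes were lowest in replicate 4 and highest in replicate 5 among the p52Ki libraries.

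Exons of Cd72 share ground with Tesk1, a kinase gene on the other strand. The kit does not mark strand and the labels do not say how shared reads were counted, so reads in the overlap cannot be assigned by strand. Tesk1 exons cover 41.6% of all annotated Cd72 exon bases, and 22.1% of the principal Cd72 transcript with 0 of its coding bases. Tesk1, named after its values were seen, rose as well, its mean being 146 ± 26.0 CPM for WT and 284 ± 45.6 CPM for p52Ki (edgeR log2 fold change 0.96 ± 0.17, adjusted p = 0.0068). Its count was 26.1% to 29.5% of the Cd72 count in WT libraries and 24.6% to 26.9% in p52Ki libraries. How many reads the 2 genes share was not tested. The same kind of overlap touches Cd22, whose antisense partner Gm29439 covers 9.5% of its exon bases and had 19.1% to 23.1% of its count in WT and 18.7% to 23.2% in p52Ki. For Ptpn6 the antisense gene Gm20531 covers 6.96% of exon bases and had 23.9% to 24.7% and 22.5% to 24.2% of its count.

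CD22, a sialic acid receptor that is a main brake on B cell receptor signalling in conventional B cells, was encoded by the gene with the most CPM of the 8 receptors in WT (ENSMUSG00000030577, chromosome 7, 30865402 to 30880342, minus strand). Cd22 was at 922, 1044, 1015 and 922 CPM in WT and at 1015, 1029, 1154, 1164 and 1039 CPM in p52Ki. The groups overlapped, with 2 p52Ki libraries above all WT libraries. In edgeR the log2 fold change was 0.15 ± 0.10, with an adjusted p of 0.471 and an interval of 1.96 SE on either side from -0.06 to 0.35. A doubling like those of Cd72 and Siglecg lies outside that range.

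The ratio of transcripts within a library does not depend on how libraries are scaled. The log2 ratio of Cd72 to Cd22 was -0.85, -1.05, -1.11 and -0.57 in WT and 0.10, -0.07, -0.14, -0.34 and 0.41 in p52Ki. Cd22 counts thus exceeded Cd72 counts in each WT library, and in p52Ki the pair were close. The means differed by 0.89 (exact two-sided permutation p = 0.00794, the smallest that 4 libraries against 5 allow, and 0.0238 adjusted over 3 ratios). The log2 ratio of Siglecg to Cd22 spanned -0.97 to -0.59 across WT libraries and -0.21 to 0.59 across p52Ki libraries. The means, -0.78 ± 0.15 and 0.25 ± 0.31 (SD, n = 4 and 5), differed by 1.03 (exact permutation p = 0.0159, adjusted 0.0238). Over these 9 libraries the 2 sialic acid receptors of B cells therefore changed unequally.

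Fcrl5, of the Fc receptor-like family and known from marginal zone and B-1 B cells, was the scarcest member (ENSMUSG00000048031, chromosome 3, 87435773 to 87500678, plus strand). It had 146, 44, 36 and 82 counts in WT, or 19.2, 6.09, 5.12 and 10.9 CPM. In p52Ki it had 125, 516, 172, 431 and 101 counts, or 18.1, 91.0, 27.8, 66.0 and 21.9 CPM. p52Ki replicates 2 and 4 stood apart from the other three, and replicate 1 lay below WT replicate 1. The log2 fold change was 2.12 ± 0.58 (edgeR adjusted p = 0.0435). The call ended without WT replicates 2, 3 or 4 (adjusted p = 0.102, 0.101 and 0.0907) and without p52Ki replicates 2, 3 or 4 (0.107, 0.0597 and 0.0779), and with limma-voom (0.0785).

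The family's other members, Fcrl1 and Fcrla, had smaller estimates that missed the threshold. Fcrl1, a surface receptor of B cells that has been described as an enhancer of B cell receptor signals, had 0 inhibitory matches in its tail (ENSMUSG00000059994, chromosome 3, 87376387 to 87402934). It stood at 299, 252, 360 and 410 CPM in WT and at 381, 393, 412, 339 and 321 CPM in p52Ki, with most p52Ki values inside the WT range. The edgeR estimate was 0.16 ± 0.16 in log2 with an interval from -0.15 to 0.47 (adjusted p = 0.637). Fcrla, whose product resides in the endoplasmic reticulum and can bind immunoglobulin there (ENSMUSG00000038421, chromosome 1, 170917576 to 170927583), was at 375, 346, 454 and 404 CPM in WT and 623, 593, 547, 424 and 499 CPM in p52Ki. Only p52Ki replicate 4 lay under the highest WT library. The edgeR log2 fold change, 0.44 ± 0.14, missed the threshold (adjusted p = 0.081). It passed with DESeq2 (adjusted p = 0.0216) and in edgeR without p52Ki replicate 4 (0.0283).

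**Figure D2:**
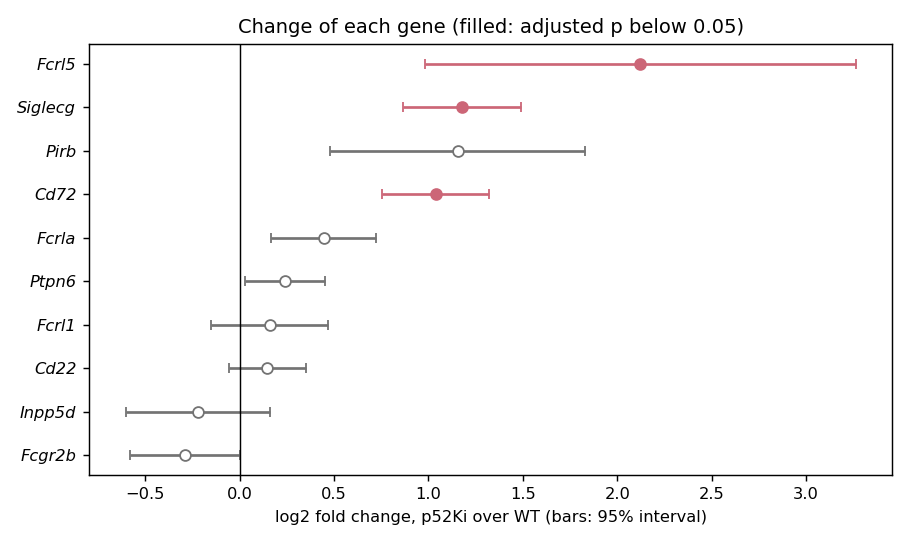
Log2 fold change of each gene, p52Ki over WT, with bars of 1.96 SE on either side, from 4 WT and 5 p52Ki libraries. The bars, before any adjustment over genes, approximate a 95% interval by the normal distribution and are narrower than the F test implies. That of Fcgr2b ends at 0.0003, with an unadjusted edgeR p of 0.074. Filled points are the 3 genes past an adjusted p of 0.05 (Fcrl5, Siglecg and Cd72), and Fcgr2b and Inpp5d are the 2 with values below 0.

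Fcgr2b, the only Fc receptor for IgG on mouse B cells, had the most negative value of the set (ENSMUSG00000026656, chromosome 1, 170958617 to 170976547, minus strand). It was at 280, 238, 264 and 259 CPM in WT and at 169, 233, 193, 212 and 259 CPM in p52Ki, of which 4 lay below every WT library. The edgeR log2 fold change, -0.29 ± 0.15, missed the threshold (adjusted p = 0.29). Pirb, a receptor shared by B cells and myeloid cells (ENSMUSG00000058818, chromosome 7, 3711409 to 3720391, minus strand), was at 39.0, 75.9, 39.2 and 19.2 CPM in WT and 87.3, 108, 81.6, 74.3 and 132 CPM in p52Ki. WT replicate 2 was the only WT library within the p52Ki range. The edgeR log2 fold change, 1.16 ± 0.34, was close to that of Siglecg but missed the threshold (adjusted p = 0.0615). It passed without WT replicate 2 (log2 fold change 1.57, edgeR adjusted p = 0.0163), with DESeq2 (0.0093), with limma-voom (0.0412), with limma-trend (0.0278) and after a filter of 10 CPM in 4 libraries (0.0323).

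Pirb has close relatives in the genome, the activating PIR-A genes, and reads could be split among them, so its value is uncertain. Pira2 summed to 28 counts over the WT libraries and to 210 over the p52Ki libraries, short of the threshold (edgeR adjusted p = 0.0799). Lilra6, another relative and named after its values were seen, summed to 4 counts over the WT libraries and to 330 over the p52Ki libraries. Its counts were 0, 4, 0 and 0 in WT, so it passed the filter on low counts only through p52Ki. Its p-value is therefore left out. Both were far below Pirb in each library. Markers of myeloid cells, which also express Pirb and Fcgr2b, summed to 30.1 to 85.2 CPM in WT and 72.2 to 180 CPM in p52Ki over 10 genes. None of the 5 tested passed by edgeR, but Lyz2 and Ly6c2 lay above every WT library in every p52Ki library. Lyz2 had means of 7.52 ± 4.17 CPM (WT) and 28.5 ± 21.5 CPM (p52Ki), and Ly6c2 of 3.53 ± 2.69 and 26.4 ± 10.3 CPM (edgeR adjusted p = 0.0685 and 0.0577). Csf1r, Adgre1 and Cd68, the others tested, overlapped between genotypes. Their log2 fold changes were 0.28, 0.16 and 0.06 (edgeR adjusted p = 0.801, 0.962 and 0.958). Of those not tested, S100a8 and S100a9 had 0 counts in all 9 libraries. The part of myeloid cells in the value of Pirb was not tested.

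SHP-1 is encoded by Ptpn6, the most abundant of the 10 genes (ENSMUSG00000004266, chromosome 6, 124720707 to 124738714, minus strand). It stood at 1986, 2009, 1787 and 1748 CPM in WT and at 2313, 2061, 2342, 1947 and 2460 CPM in p52Ki. Only p52Ki replicate 4 fell within the WT range, and the edgeR log2 fold change, 0.24 ± 0.11, missed the threshold (adjusted p = 0.22). SHIP-1, which removes a phosphate from the lipid made by PI3 kinase, is encoded by Inpp5d (ENSMUSG00000026288, chromosome 1, 87620312 to 87720507, plus strand). It stood at 352, 356, 448 and 321 CPM in WT and at 304, 348, 423, 309 and 200 CPM in p52Ki. The groups overlapped, p52Ki replicate 5 was the lowest, and the edgeR log2 fold change was -0.22 ± 0.20 (adjusted p = 0.583). The log2 ratio of Inpp5d to Ptpn6 was -2.36 ± 0.24 in WT and -2.85 ± 0.46 in p52Ki (SD, n = 4 and 5), a difference of -0.49 that did not pass (exact permutation p = 0.0794, adjusted 0.0794). The lowest library was p52Ki replicate 5, at -3.62, without which the difference was -0.30. Without p52Ki replicate 3 it was -0.59 and passed (exact permutation, adjusted p = 0.0286).

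Levels of different genes were compared per kilobase of annotated exon. In WT, Ptpn6 led at 672 ± 47.8 CPM per kb. Fcrla followed at 226 ± 26.5, then Cd22 at 194 ± 12.5, Cd72 at 154 ± 19.4, Siglecg at 120 ± 19.7, Fcrl1 at 92.8 ± 19.5, Inpp5d at 48.6 ± 7.22, Fcgr2b at 45.0 ± 3.0, Pirb at 9.70 ± 5.29 and Fcrl5 at 2.96 ± 1.84. Neighbours whose mean ± SD ranges overlapped were Fcrla and Cd22, Cd72 and Siglecg, Siglecg and Fcrl1, Inpp5d and Fcgr2b, and Pirb and Fcrl5. In p52Ki Cd72 had the highest mean of the receptors, at 317 ± 51.8 CPM per kb. Next were Fcrla at 308 ± 45.0, Siglecg at 271 ± 45.2 and Cd22 at 214 ± 14.4. The mean ± SD ranges of Cd72, Fcrla and Siglecg overlapped, as did those of Siglecg and Cd22. Fcrla stood above Cd72 in p52Ki replicates 1, 2 and 3 and below it in replicates 4 and 5. The order of the genes also rests on the length used. With the longest principal transcript of each gene, an alternative added after seeing the data, Cd72 led the receptors in WT too, at 372 ± 46.8 CPM per kb against 246 ± 15.9 for Cd22.

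Summed over the 8 receptors, these levels came to 844 CPM per kb in WT (792 to 881) and 1285 in p52Ki (1119 to 1391), with no overlap. Cd72 made up 18.3% ± 2.17 of the sum in WT and 24.6% ± 2.52 in p52Ki, and Siglecg 14.2% ± 2.30 and 21.0% ± 2.01 (SD, n = 4 and 5). Cd22 made up 23.0% ± 1.70 and 16.8% ± 2.38, and Fcgr2b 5.34% ± 0.52 and 2.88% ± 0.48. These shares describe the same values as above and were not tested. Like the order of the genes, the sum and the shares rest on the length used, here all annotated exons.

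**Figure D3:**
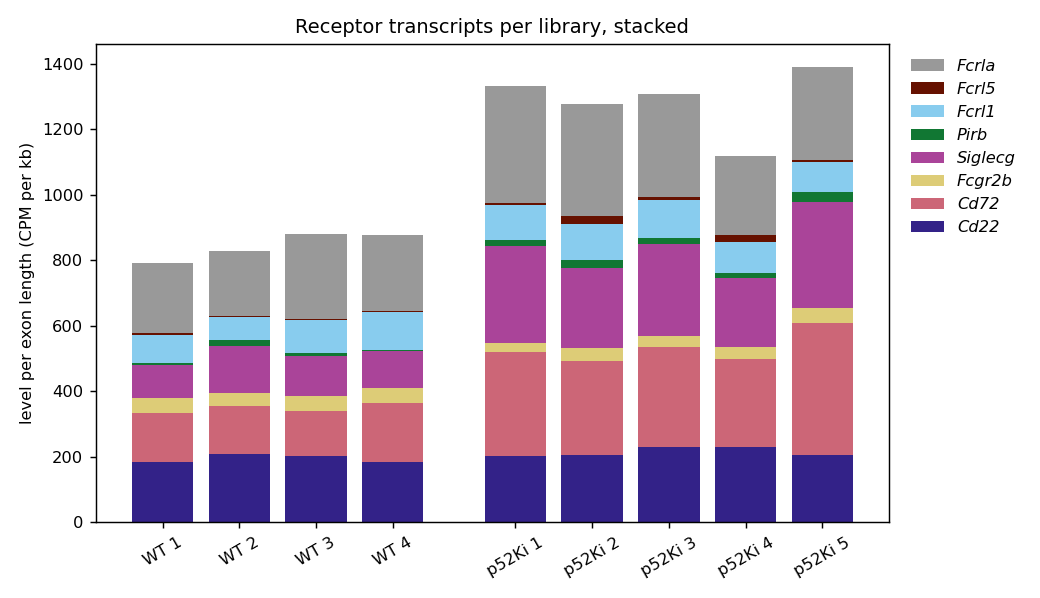
Level of the 8 receptor genes in CPM per kilobase of exon, stacked for each of the 9 libraries on a linear axis from 0. The stacks reach 792 to 881 in WT and 1119 to 1391 in p52Ki, and the bands of Cd72 and Siglecg are thicker in each p52Ki library while that of Cd22 is similar.

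The title of the series pairs p52 with ETS1, whose family binds DNA at a GGAA core. RefSeq promoter windows (GRCm38.p6, 250 bases before to 50 after a gene's start) were found for all 10 members. The core was searched as GGAA, the longer form as GGAAGT, and the NF-kB site by its kB consensus, each on both strands, and a kB match may overlap a GGAA match. Of 32851 windows, 96.0% held GGAA with a median of 3 matches, 23.8% held GGAAGT and 8.46% held a kB match. Cd72 had 1 GGAA match, which is part of its 1 GGAAGT match, and 0 kB matches. The first window of Siglecg had 4 GGAA, 0 GGAAGT and 0 kB matches, and its second window, which overlaps it, had 2, 0 and 0. Fcrl1, whose level did not pass the test, had 7, 2 and 1, the only kB match among the members. Fcrl5, also called higher, had 4, 1 and 0, and its window is not shown. Shown are the windows of Cd72, of Siglecg (the first) and of Fcrl1, the member with the most matches. GGAA (read as TTCC on the other strand) and the kB match are in capitals.
Cd72 promoter, chr4:43454577-43454876 (minus strand): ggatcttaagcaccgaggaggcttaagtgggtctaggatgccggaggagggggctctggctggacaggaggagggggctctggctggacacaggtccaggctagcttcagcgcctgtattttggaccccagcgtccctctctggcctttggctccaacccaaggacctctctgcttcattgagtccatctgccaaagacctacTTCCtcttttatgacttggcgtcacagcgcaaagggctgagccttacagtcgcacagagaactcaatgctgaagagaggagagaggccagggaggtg
Siglecg promoter, chr7:43407989-43408288 (plus strand): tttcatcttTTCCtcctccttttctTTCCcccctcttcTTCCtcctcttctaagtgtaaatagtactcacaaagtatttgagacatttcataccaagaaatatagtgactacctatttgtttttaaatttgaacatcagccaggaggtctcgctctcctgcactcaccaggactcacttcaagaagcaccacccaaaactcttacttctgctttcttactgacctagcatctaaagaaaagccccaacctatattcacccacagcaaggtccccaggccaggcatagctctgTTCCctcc
Fcrl1 promoter, chr3:87376137-87376436 (plus strand): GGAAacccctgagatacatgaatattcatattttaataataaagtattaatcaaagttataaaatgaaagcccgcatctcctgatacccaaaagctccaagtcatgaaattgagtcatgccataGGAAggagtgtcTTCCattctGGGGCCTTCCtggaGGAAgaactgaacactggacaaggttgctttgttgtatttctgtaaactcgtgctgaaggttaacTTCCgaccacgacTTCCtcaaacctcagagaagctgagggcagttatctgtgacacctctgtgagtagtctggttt

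Around these receptors, 64 further genes of the pathway were tested in 7 lists, and 6 rose and 3 fell. Over all genes tested, 4.49% were called higher, 4.04% lower and 8.53% in all. That background applies to each list below as well, and the counts per list are small and only describe single genes. Of 11 other inhibitory receptors, 2 rose and 1 fell. Ceacam1, a receptor with inhibitory motifs that binds SHP-1, rose by 1.63 ± 0.23 in log2, its mean being 75.6 ± 13.9 CPM for WT and 234 ± 61.6 CPM for p52Ki (edgeR adjusted p = 0.00266). Pecam1, which also carries inhibitory motifs, rose by 1.36 ± 0.33 in log2 (edgeR adjusted p = 0.0256), with means of 71.4 ± 33.2 CPM for WT and 183 ± 54.6 CPM for p52Ki. Clec12a, an inhibitory lectin best known from myeloid cells, fell from 77.1 ± 17.2 to 39.6 ± 5.95 CPM (edgeR adjusted p = 0.021). The call of Pecam1 ended without WT replicates 2 or 3 or p52Ki replicates 1, 3 or 5 (adjusted p up to 0.066), and that of Clec12a without WT replicates 2 or 3 or p52Ki replicate 3 (up to 0.0721).

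Of 4 genes, those of the antigen receptor's signalling chains with Cr2 and Cd81, 1 rose. Cd79a, a signalling chain of the receptor, stood at 1217, 1417, 1930 and 1713 CPM in WT and at 2879, 2905, 2883, 2158 and 3320 CPM in p52Ki (log2 fold change 0.85 ± 0.16, edgeR adjusted p = 0.00906). Its partner Cd79b had a log2 fold change of 0.34 ± 0.12 and missed the threshold (edgeR adjusted p = 0.115). The activating and inhibitory sides of the receptor thus each held a gene that rose and genes that did not pass.

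Among 11 kinases of the motifs and their regulators, 1 rose and 0 fell. Lyn, the kinase that usually phosphorylates these motifs in B cells, had means of 317 ± 74.2 CPM (WT) and 376 ± 71.3 CPM (p52Ki), short of the threshold (edgeR adjusted p = 0.517). Ptpn22, a phosphatase that restrains SRC family kinases, rose by 1.34 ± 0.36 in log2 (edgeR adjusted p = 0.0403), a call that ended without WT replicates 1, 3 or 4 or p52Ki replicates 1, 2 or 4 (adjusted p up to 0.0977) and with limma-voom (0.0631).

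Of 11 other phosphatases only Ptprj passed, the gene for the receptor phosphatase CD148, which rose by 1.61 ± 0.27 in log2, its mean being 51.8 ± 17.5 CPM for WT and 158 ± 39.2 CPM for p52Ki (edgeR adjusted p = 0.00542). Ptpn11, which encodes SHP-2, had means of 44.2 ± 19.6 CPM (WT) and 36.4 ± 8.47 CPM (p52Ki), with an edgeR adjusted p of 0.714. Of 10 adaptors, Bank1, a B cell scaffold that binds Lyn, rose by 0.76 ± 0.13 in log2, from a mean of 362 ± 23.6 CPM (edgeR adjusted p = 0.00687), and Dok1, an adaptor in FCGR2B signalling, fell from 90.5 ± 9.76 to 48.5 ± 12.7 CPM (edgeR adjusted p = 0.0296). The call of Dok1 ended without any library other than WT replicate 4 and p52Ki replicate 2 (adjusted p up to 0.0709).

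Of 13 genes for ligands and sialic acid synthesis, 1 fell and 0 rose. St6gal1, the enzyme that makes the sialic acid linkage bound by CD22, fell from 439 ± 95.8 to 252 ± 49.4 CPM, with every p52Ki library below every WT library (log2 fold change -0.80 ± 0.19, edgeR adjusted p = 0.0215). That call ended without WT replicates 1 or 3 or p52Ki replicate 1 (adjusted p up to 0.0689). Sema4d, the gene for the CD72 ligand CD100, had means of 388 ± 52.5 CPM (WT) and 314 ± 69.3 CPM (p52Ki), short of the threshold (edgeR adjusted p = 0.364). None of 4 activating Fc and PIR-A genes passed by edgeR, Pira2 having the smallest p. Pira2 was the only PIR-A gene among them, since the other listed PIR-A symbols were not matched by name. Lilra6, the relative described above, was not in this list.

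**Figure D4:**
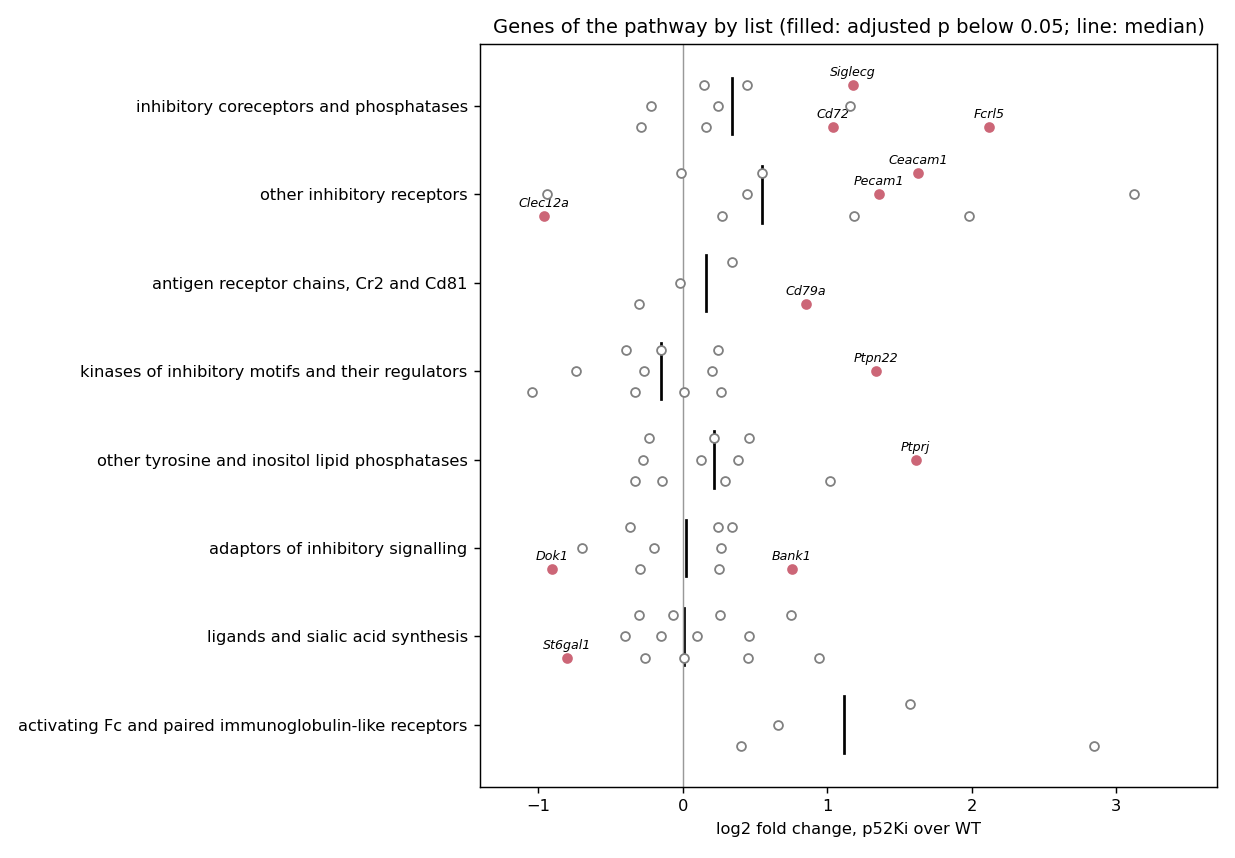
Log2 fold change, p52Ki over WT, of each tested gene in the 8 lists, with filled and named points past an adjusted p of 0.05 and a black line at each list's median. The list of the 10 coreceptor and phosphatase genes has a median of 0.34, below the other inhibitory receptors (0.55) and the activating Fc and PIR-A genes (1.12) and above the other phosphatases (0.21), the antigen receptor list (0.16), the adaptors (0.02), the ligands (0.01) and the kinases (-0.15). The 4 activating Fc and PIR-A genes had WT means of only 0.95 to 2.57 CPM. The other inhibitory receptors include genes as low, such as Tigit (0.23 CPM) and Cd5 (1.35 CPM), so these 2 medians are uncertain.

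Several properties of the libraries moved with genotype. WT libraries held 7368604 to 7937579 counts and p52Ki libraries 4492160 to 6647650, and 14033 to 14793 and 15504 to 16634 genes had a count. The 5 B cell markers, of which 1 rose, summed to 6409 to 7466 CPM for WT and 7423 to 10389 CPM for p52Ki. Of 8 germinal centre B cell markers 6 fell, with sums of 2754 to 3520 CPM in WT and 733 to 1649 CPM in p52Ki. Of 6 resting follicular markers 5 rose, and all 6 summed to 592 to 819 CPM (WT) and 1307 to 1942 CPM (p52Ki). The other, Fcer2a, went the other way without passing, with means of 428 CPM (WT) and 357 CPM (p52Ki). Its log2 fold change was -0.26 (edgeR adjusted p = 0.551), and it made up most of each WT sum. The sum of 4 B-1 markers was 21.3 to 51.3 CPM in WT and 165 to 237 CPM in p52Ki. Only Bhlhe41 passed, with means of 15.7 ± 5.84 and 136 ± 34.5 CPM, and it made up most of the p52Ki sum. Zbtb32 (11.5 and 44.8 CPM), Cd5 (1.35 and 5.39) and Spn (8.54 and 8.81) did not pass. The part of these marker sets in the changes of Cd72, Siglecg and Fcrl5 was not tested. In bulk libraries fewer cells of a type and less RNA per cell cannot be told apart. Of 5 plasma cell markers 1 fell, their sums being 1505 to 1969 CPM in WT and 722 to 1321 CPM in p52Ki. Jchain, the marker that fell (edgeR adjusted p = 0.0116), made up most of each sum. Sdc1 went the other way without passing, at 0 to 4.84 CPM in WT and 6.74 to 37.9 CPM in p52Ki (edgeR adjusted p = 0.0762). Xbp1, Prdm1 and Mzb1 overlapped between genotypes and did not pass. Of 5 dendritic cell markers only Flt3 was tested, and it fell from 58.5 ± 10.3 to 21.6 ± 9.59 CPM (edgeR adjusted p = 0.02665). Flt3 made up most of each sum over the 5 (45.2 to 67.7 CPM in WT, 13.2 to 37.1 CPM in p52Ki). Zbtb46, Clec9a, Xcr1 and Siglech did not pass the filter on low counts, so the fall is that of a single gene. No marker of T, natural killer, stromal or red cells was called by edgeR, and their sums stayed at or under 40.1 CPM in every library. Nfkb2 was at 93.8 to 175 CPM in WT and 150 to 261 CPM in p52Ki (edgeR adjusted p = 0.0987), a level that does not separate transcripts of the modified allele.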

How the data were processed

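The data are RNA-seq libraries of spleen pre-GC B cells, 4 WT and 5 p52Ki, of 4492160 to 7937579 counts each. Per the labels' protocols, cDNA was made by the SMART-Seq v2 method and cut with Nextera XT, which marks neither strand nor molecules. The tools named are Subread 1.6.2 with featureCounts, HISAT2 2.1.0 and SAMtools 1.8, with build GRCm38, per the submitters' processing notes. Neither the annotation nor the handling of strand or shared reads is stated there. The authors deposited raw counts for 55536 genes and log2 CPM values for 12849 genes. The deposited log2 values equalled edgeR's with TMM and a prior count of 2 (largest difference 4.97e-14).

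Counts were tested in R 4.3.3 with edgeR 4.0.16 (filterByExpr, TMM, robust quasi-likelihood F test, all 9 libraries, no covariate), two-sided, with Benjamini-Hochberg adjustment over 12849 genes and a threshold of 0.05. Each standard error is the absolute log2 fold change divided by the root of its F value. CPM use TMM-scaled library sizes, and exon lengths and positions are from GENCODE M21. Ratios within libraries used 0.5 added to each count. The members and the 18 other lists (7 of the pathway, 11 of markers) were chosen with earlier results of these data known. All members were named, and from each pathway list up to 4 genes past the threshold, or else the gene of smallest p. Lyn, Ptpn11, Sema4d and Cd79b, outside this rule, were chosen for their known roles after their values were seen. 7 listed symbols were not matched by name, and 2 other listed genes are not reported here and were left out of the lists. Alternatives were DESeq2 1.42.0 and its size factors, limma 3.58.1 (voom and trend), other filters, a replicate block, a GC and length correction, and each library left out.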

Additional observations from a re-analysis of the deposited data

Results flagged for a closer look

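In 26 sets of samples (10 genes and 3 ratios in each genotype), the highest or lowest sample stood apart from the rest in 1, where chance gives about 1 in 20. This was the log2 ratio of Inpp5d to Ptpn6 in WT replicate 3, at -1.99, against -2.50, -2.50 and -2.44 in WT replicates 1, 2 and 4. The gap to the nearest library was 0.894 of the whole range, above the critical value of Dixon's test for 4 samples. Inpp5d itself was highest in that library, at 448 CPM, and Ptpn6 was at 1787 CPM, the second lowest WT value.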

How the results depend on the processing

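Under 17 alternatives each, none of the 10 members changed direction, and Cd72 and Siglecg passed in all 17 (log2 fold changes 0.94 to 1.15 and 1.09 to 1.28). Of the 170 values, 155 kept their side of the threshold, 8 lost the call (all Fcrl5) and 7 gained it (5 Pirb, 2 Fcrla). The members called numbered 3 in the reported fit, 5 with DESeq2 and 2 to 3 with a library left out. Over all genes, 1096 were called, 2047 with DESeq2, 129 with the replicate block and 625 to 1108 with a library left out. Of the pathway genes, 9 were called, 14 with DESeq2, 1 with the replicate block and 4 to 9 with a library left out, with 4 without WT replicate 3 and 5 without p52Ki replicate 1. Counts over all genes fell by more than 1.5 times to 714, 711, 651, 625 and 716 leaving out, in turn, WT replicate 1, WT replicate 4, p52Ki replicate 1, p52Ki replicate 3 and p52Ki replicate 5. The cause was not tested. After the GC and length correction, 496 genes were higher and 779 lower (38.9% higher, 52.6% in the reported fit), the median of all genes moved from 0.03 to -0.08, and the same number of members, 3, was called.

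Libraries with the same replicate number did not deviate together (correlations -0.05, -0.03, -0.03 and -0.02). The deviations were taken from each genotype's own mean, so they cancel over its libraries and cannot settle whether a batch is shared. The labels do not say what links libraries of the same number. With that number as a block, 2 members were called and Fcrl5 was not (edgeR adjusted p = 0.141). Over the 4 numbered pairs, the block gave ratio differences of 0.78 for Cd72 to Cd22 and 0.95 for Siglecg to Cd22, each with an adjusted exact p of 0.125 that cannot pass with 4 pairs. With a library left out, the difference was 0.78 to 1.00 for Cd72 to Cd22, 0.95 to 1.15 for Siglecg to Cd22 and -0.59 to -0.30 for Inpp5d to Ptpn6. The depth of Fcrl5, Pira2 and Lilra6 limits what their values show.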
